A study of Mus musculus with 4 samples.

Results

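The genes described here encode proteins that organise the extracellular matrix around collagen: matricellular glycoproteins, the components of elastic fibres, and the enzymes that modify and crosslink collagen and elastin. The set was a list of 40 genes, and a gene was taken as measured where a non-control probe on the array carried its symbol. This held for 39 of the 40 genes, with 67 probes, out of 27745 gene names and 41174 probes on the array. Hspg2, which encodes perlecan, had no probe under that symbol and is not analysed here.

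Expression was measured in C2C12 cells, a line of mouse myoblasts that fuse into myotubes when serum is lowered. After growth in 10% fetal bovine serum, the myoblasts differentiated for 6 days in horse serum. Treated cells received 20 nM GDF8 (recombinant mouse myostatin) every 24 h, and control cells were left untreated. The labels give the horse serum as 2% in one place and 10% in another. Each of 4 two-colour Agilent arrays held RNA of GDF8-treated cells in one dye and of untreated cells in the other, with GDF8 in Cy5 on replicates 2 and 3 and in Cy3 on replicates 1 and 4. All 4 arrays lay on 1 slide. The labels call them biological replicates and do not describe separate cultures, so the p-values measure the spread between these arrays. All samples came from 1 cell line, and a line in culture holds a mixture of myotubes and unfused cells. In such RNA, fewer cells of a type and less RNA per cell cannot be told apart.

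Myostatin is a ligand of the TGF-beta family that signals through activin receptors and Smad2 and Smad3 and restrains muscle growth. Matricellular proteins are secreted into the matrix but act on cells and growth factors more than they bear load. Elastic fibres form when elastin is laid down on microfibrils of fibrillin with the help of fibulins, and lysyl oxidases then crosslink elastin and collagen. Latent TGF-beta binding proteins tie the inactive growth factor to the same microfibrils, and prolyl and lysyl hydroxylases prepare collagen chains for folding and crosslinking inside the cell.

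Ratios are on the log2 scale, with GDF8-treated cells over untreated cells, so a positive value means higher with GDF8. A fitted value is given with ± its standard error from limma (n = 4 arrays), and adjusted p-values are limma's after Benjamini-Hochberg adjustment over all 17665 features, with a threshold of 0.05. A feature is a gene represented by 1 probe, the brightest that was never saturated. Of the 39 genes with a probe, 37 passed the filter on dim probes. The probe of Fbn2, a fibrillin, was above background in 0 of 8 channels, and the better probe of Tnxb, tenascin X, in 2 of 4 GDF8 and 2 of 4 untreated channels, so no value is given for either. Of the 37 genes tested, 25 had a probe that was never saturated and 12 had saturated probes only.

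With GDF8, 1 of the 37 genes was higher, 1 was lower and 35 did not pass the threshold. The gene that rose was Tnc, which encodes tenascin C, and the gene that fell was Thbs4, which encodes thrombospondin 4. Over all features, 3.26% were called, 0.9% higher and 2.35% lower, and over features with an unsaturated probe 1.02% and 2.63%, so that 1 call each way among 37 genes (2.70% each) was near the background. An unadjusted p under 0.05 was seen for 9 of the 37. The median fitted value of the 37 genes was 0.08, against 0.01 for all features. Of the 25 genes with an unsaturated probe, 18 had a positive value (72.0%, against 54.3% of all such features) and the median was 0.16. On all 4 arrays, 6 of the 37 genes were positive and 2 negative, against 7.81% and 8.6% of all features. A change of 1.5-fold simulated in this design was recovered in 86.6% of features and one of 2-fold in 100%. In the measured data, Tnc at 1.45-fold and Thbs4 at 1.48-fold passed. Has2 at 1.52-fold, Sparcl1 at 1.59-fold and Efemp1 at 1.93-fold did not. The simulated shares therefore do not show that genes below the threshold were unchanged.

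The upstream sequences of Tnc, Thbs4 and Efemp1, the 3 genes with the same sign on all 4 arrays and a fitted value over 0.3 in size, are shown to give the start site regions of these transcripts. They are the 250 bases before a RefSeq start on build GRCm38.p6, written 5′ to 3′ on the strand of the gene. Capitals mark matches, on either strand, to TATAAA (the TATA box), CAGACA (which holds the core of the Smad-binding element, and reads TGTCTG on the other strand) or TGANTCA (the AP-1 site). They lie at chr4:64047016-64047265 on the minus strand for Tnc, at chr13:92794819-92795068 on the minus strand for Thbs4 and at chr11:28852955-28853204 on the plus strand for Efemp1.
Tnc: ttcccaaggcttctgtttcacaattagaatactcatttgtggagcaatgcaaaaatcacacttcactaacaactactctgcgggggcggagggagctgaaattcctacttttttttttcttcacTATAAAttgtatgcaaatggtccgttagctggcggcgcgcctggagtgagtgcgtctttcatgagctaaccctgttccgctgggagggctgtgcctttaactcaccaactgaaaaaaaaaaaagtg
Thbs4: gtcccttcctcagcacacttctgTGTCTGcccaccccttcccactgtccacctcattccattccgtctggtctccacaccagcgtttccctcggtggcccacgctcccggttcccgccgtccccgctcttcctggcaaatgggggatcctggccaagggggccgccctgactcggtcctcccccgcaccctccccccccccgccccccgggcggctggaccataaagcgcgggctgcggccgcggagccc
Efemp1: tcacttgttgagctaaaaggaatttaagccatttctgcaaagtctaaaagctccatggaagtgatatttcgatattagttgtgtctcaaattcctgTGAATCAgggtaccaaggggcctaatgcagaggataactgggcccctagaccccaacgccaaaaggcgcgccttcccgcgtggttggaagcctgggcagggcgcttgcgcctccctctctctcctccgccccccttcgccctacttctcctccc

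The Tnc window held TATAAA, with its first base 126 bases before the start. The Thbs4 window held 1 CAGACA on the opposite strand, 227 bases before the start, and the Efemp1 window 1 TGANTCA, 154 bases before it. A second Tnc start, further downstream, had a window that held 1 CAGACA and the same TATAAA. RefSeq windows were at hand for 27 of the 40 genes, with 38 windows in all. CAGACA was present in 26.3% of those 38 windows, against 17.1% of all 32851 windows in the table. TGANTCA was present in 5.26% against 6.75%, TATAAA in 13.2% against 12.4%, and CANNTG, the E-box bound by myogenic factors, in 63.2% against 66.2%. The palindromic Smad element GTCTAGAC was in 0 of the 38 windows and in 0.167% of all windows. A stretch was counted under every motif that it matched, and no motif searched contains another. These matches are a description of letters and were not tested.

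**Figure D1:**
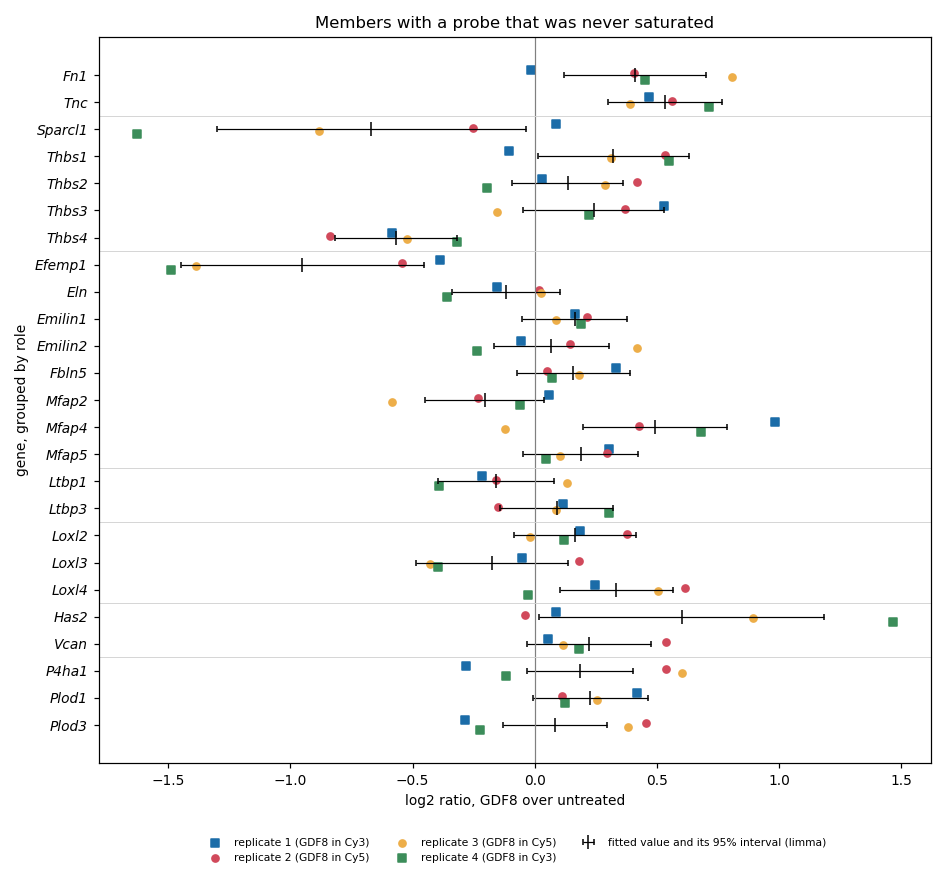
Log2 ratio of GDF8 over untreated (x axis) on each of the 4 arrays for the 25 genes with a probe that was never saturated (y axis, grouped by role); circles are arrays with GDF8 in Cy5, squares arrays with GDF8 in Cy3, and black bars the limma estimate with its 95% interval. All 4 Tnc points lie between 0.39 and 0.71 and all 4 Thbs4 points between -0.84 and -0.32, while the points of Efemp1, Sparcl1 and Has2 are spread widely.

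Among fibronectin and the tenascins, Tnc was the only gene of the 2 tested that passed. Tenascin C is a large hexameric glycoprotein made at sites of tissue remodelling, tendon and regenerating muscle. Its probe gave 0.47, 0.56, 0.39 and 0.71 on replicates 1 to 4. All 4 arrays were positive and close to each other, in both dye orientations. The fitted value was 0.53 ± 0.10 (95% interval 0.30 to 0.77), or 1.45-fold higher (adjusted p = 0.040). The mean log2 intensity of this probe was 14.42 with GDF8 and 13.89 without. Untreated cells ranged from 13.24 to 14.55 and GDF8-treated cells from 13.95 to 14.94, so the channels overlapped across arrays although each array had the GDF8 channel above its partner. Tnc ranked 474 of 17665 features by p.

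The other Tnc probes, dimmer and never saturated, pointed the same way. One gave 0.48, 0.11, 0.22 and 1.58 with a fitted 0.60 ± 0.17, and the other gave 0.42, 0.35, 0.30 and 1.09 with a fitted 0.54 ± 0.13. All 12 ratios of the 3 probes were thus positive, with replicate 4 the highest in each, but with each probe tested on its own only the brightest passed (adjusted p = 0.038, against 0.17 and 0.087). The Tnc call was lost whenever 1 array was left out: its adjusted p was 0.052, 0.28, 0.14 and 0.14 without replicates 1 to 4, at fitted values from 0.47 to 0.59. Without replicate 2, 0 of all features were called, so the lost call there is not particular to Tnc. The adjusted p of Tnc was 0.83 when treated and untreated channels were compared without pairing by array.

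Fibronectin, the cell-adhesive glycoprotein on which other matrix proteins assemble, had 4 probes, of which 1 was never saturated. That probe was chosen for full values after they were seen, as were those of Sparcl1, Thbs1, Mfap4, Loxl4 and Has2 below. It gave -0.02, 0.41, 0.81 and 0.45 for Fn1 on replicates 1 to 4. Replicate 1 stood near 0 and the other 3 were positive. The fit gave 0.41 ± 0.12 (95% interval 0.12 to 0.70; adjusted p = 0.18), so Fn1 did not pass. A second Fn1 probe was unsaturated on replicate 4 alone, where it gave -0.49, against 0.45 with the first.

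Of the 7 matricellular genes, all of which were tested, 1 was lower and 6 did not pass. Thrombospondin 4, a pentameric glycoprotein of tendon and muscle matrix, was represented by a dim probe, above background in 3 of 4 GDF8 channels and 4 of 4 untreated channels. This probe met the filter on dim probes through the untreated channels alone, those of the RNA in which it was higher. The Thbs4 ratios were -0.59, -0.84, -0.52 and -0.32 on replicates 1 to 4. All were negative and the fitted value was -0.57 ± 0.10 (95% interval -0.82 to -0.32; adjusted p = 0.042). Its size varied with the processing of so dim a probe. Thbs4 was 1.48-fold lower here, and at -0.66 (adjusted p = 0.030) with a normexp offset of 10 in place of 50. It was at -0.90 (adjusted p = 0.038) in the authors' deposited log2 ratios, which were median centred here and not normalised by loess. Which step made the difference was not tested. The mean log2 intensity was 7.84 with GDF8, with a range of 7.78 to 7.91, and 8.40 without, with a range of 8.22 to 8.64, and here the treated and untreated channels did not overlap.

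A second Thbs4 probe differed from the first in sign. It was above background in all 8 channels, with mean log2 intensities of 8.20 and 8.02, and gave 0.42, 0.17, -0.22 and 0.32, with a fitted 0.17 ± 0.10 (adjusted p = 0.64 with each probe on its own). The first probe stood for the gene as the brighter on average, although its mean intensities of 7.84 and 8.40 were close to these. The fall of Thbs4 therefore rests on 1 of its 2 probes, and it turned to 0.17 where a probe had to be above background in both channels of all arrays, since that filter left the second probe only. The mean of both probes was -0.20 (adjusted p = 0.37). Leaving out 1 array at a time gave adjusted p-values of 0.10, 0.28, 0.098 and 0.069 for Thbs4. Without replicate 2, 0 of all features were called, so the lost call there is not particular to Thbs4.

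The thrombospondins 1, 2 and 3 had positive fitted values and did not pass. Thbs1, which encodes an activator of latent TGF-beta and inhibitor of blood vessel growth, gave -0.10, 0.53, 0.31 and 0.55, with a fitted 0.32 ± 0.13 (adjusted p = 0.35). A second unsaturated Thbs1 probe was positive on all 4 arrays, from 0.07 to 0.63, with a fitted 0.27 ± 0.10. Thbs2 was at 0.13 ± 0.09 and Thbs3 at 0.24 ± 0.12 (adjusted p = 0.71 and 0.50), each with 1 negative array.

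Sparcl1, the relative of SPARC also called hevin, gave 0.09, -0.25, -0.88 and -1.63 on replicates 1 to 4. Replicates 1 and 2 were near 0 and replicates 3 and 4 far below it, for a fitted value of -0.67 ± 0.27 (adjusted p = 0.35). A second Sparcl1 probe repeated the split at 0.19, 0.11, -1.23 and -1.67. Without replicate 1 the fitted value was -1.10 and passed (adjusted p = 0.020), and without replicate 4 it was -0.24.

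Postn and Sparc, which encode periostin and osteonectin, had saturated probes only. Both Sparc probes were saturated in all 8 channels, so the array gives no ratio for this gene.

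Of the 12 tested genes of elastic fibres and microfibrils, 0 passed in limma, 7 had positive and 5 negative fitted values, and 2 had an unadjusted p under 0.05. The lowest was Efemp1, which encodes fibulin 3, an extracellular glycoprotein with EGF repeats. Its ratios were -0.39, -0.54, -1.39 and -1.49 on replicates 1 to 4. All 4 arrays were negative, with the mean of replicates 3 and 4 lower than that of replicates 1 and 2 by a gap of 0.97. The fit gave -0.95 ± 0.21 (95% interval -1.45 to -0.45), a 1.93-fold difference that did not pass (adjusted p = 0.074). The mean log2 intensities were 12.08 with GDF8 and 13.03 without. Treated channels ranged from 11.53 to 12.46 and untreated ones from 12.85 to 13.37, without overlap. Efemp1 passed without replicate 1 (-1.23, adjusted p = 0.021), with median centring in place of loess (-0.92, adjusted p = 2.2e-05) and by the methods' t-test before adjustment with a fold over 1.6. In the other alternatives it did not pass, with values between -1.16 and -0.68.

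The highest fitted value in this group belonged to Mfap4, a microfibril-associated glycoprotein that binds fibrillin and elastin. It gave 0.99, 0.43, -0.12 and 0.68, with replicate 3 below 0 and the others above it. The mean for Mfap4 was 0.83 with GDF8 in Cy3 and 0.15 with GDF8 in Cy5. The fit gave 0.49 ± 0.12 (95% interval 0.20 to 0.79; adjusted p = 0.11). A further 3 smaller values had the same sign on every array: Emilin1, an elastin-interface glycoprotein, from 0.09 to 0.21, Fbln5, fibulin 5, which brings elastin to cells, from 0.05 to 0.33, and Mfap5, a microfibril glycoprotein, from 0.05 to 0.30. Their fitted values were 0.16 ± 0.09, 0.16 ± 0.10 and 0.19 ± 0.10, and none passed (adjusted p from 0.53 to 0.63). Among the 25 genes with an unsaturated probe, 6 were positive on all 4 arrays, which is 24.0%, against 8.91% of all features with such a probe.

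Eln, the gene of elastin itself, was dim and gave values from -0.36 to 0.03, with a fitted -0.12 ± 0.09 (95% interval -0.34 to 0.10; adjusted p = 0.76). Mfap2, whose product binds fibrillin, was at -0.20 ± 0.10 with 1 probe and 0.03 ± 0.09 with another. Emilin2 was at 0.07 ± 0.10, between -0.23 and 0.42. The 2 latent TGF-beta binding proteins with unsaturated probes were Ltbp1, at -0.16 ± 0.10 with either of its probes, and Ltbp3, at 0.09 ± 0.10, and of the 4 in this family 0 passed in limma, with 0 at an unadjusted p under 0.05.

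Of the 5 lysyl oxidases, 0 passed in limma and 1, Loxl4, had an unadjusted p under 0.05. These copper enzymes oxidise lysines of collagen and elastin, and Loxl4 gave 0.25, 0.61, 0.50 and -0.03 on replicates 1 to 4. Replicates 2 and 3, with GDF8 in Cy5, were the higher pair. Fitted, Loxl4 was at 0.33 ± 0.10 (95% interval 0.10 to 0.57; adjusted p = 0.17). Loxl2 was at 0.17 ± 0.10 with 1 probe and 0.29 ± 0.15 with another, and Loxl3 at -0.17 ± 0.13, with replicates 3 and 4 at -0.43 and -0.40 and replicates 1 and 2 on either side of 0.

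Hyaluronan and its binding proteoglycan were measured through Has2, a hyaluronan synthase of the plasma membrane, and Vcan, which encodes versican. Has2 gave 0.09, -0.04, 0.89 and 1.47, so that replicates 3 and 4 were high and replicates 1 and 2 near 0. Fitted, Has2 was at 0.60 ± 0.24 (95% interval 0.02 to 1.19; adjusted p = 0.36). It was 0.95 without replicate 1, 0.84 without replicate 2, 0.37 without replicate 3 and 0.26 without replicate 4, and passed in none of these (adjusted p from 0.053 to 0.97). A brighter Has2 probe, saturated in 2 GDF8 channels, gave 0.20, 0.35, 0.28 and 0.03, without that split. Both of its channels were unsaturated on replicates 1 and 4. On replicate 4 the 2 probes thus disagreed without saturation, at 0.03 against 1.47.

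The brightest Vcan probe gave 0.06, 0.54, 0.12 and 0.18, positive on all 4 arrays, with a fitted 0.22 ± 0.11 (95% interval -0.03 to 0.48; adjusted p = 0.47). The other unsaturated Vcan probes above background disagreed in sign, at 0.32 ± 0.10, 0.15 ± 0.15 and -0.06 ± 0.09. The first of these was positive on all 4 arrays, from 0.15 to 0.62, and the last ranged from -0.25 to 0.07. Versican is made as several splice forms, and which of them each probe reads is not given in the sources used here.

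**Figure D2:**
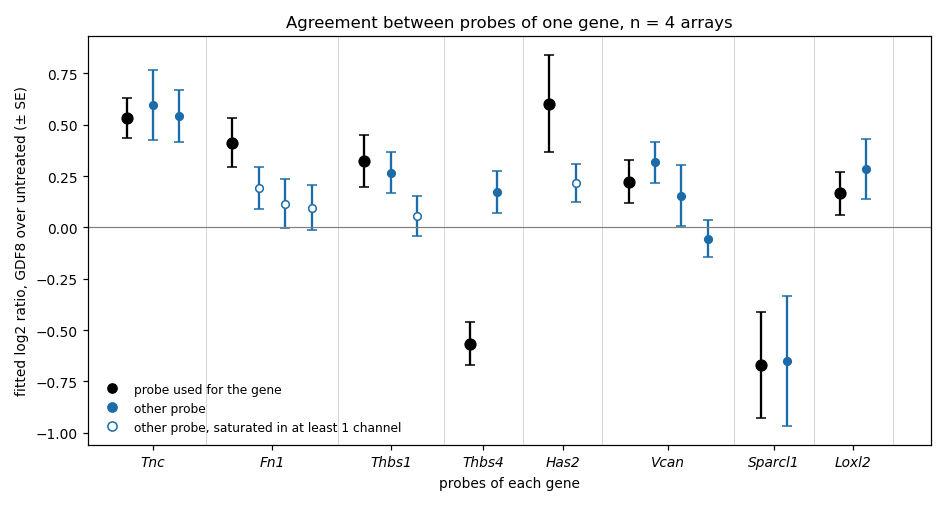
Fitted log2 ratio of GDF8 over untreated (y axis, bars are ± SE from limma, n = 4 arrays) for every probe above the dim-probe filter of 8 genes (x axis); black points are the probe used for the gene, blue points other probes, and open points probes saturated in at least 1 channel. The 3 Tnc probes sit together near 0.53 to 0.60, the 2 Thbs4 probes lie at -0.57 and 0.17, and the open points lie nearer to 0 than the black point of the same gene. The open Has2 probe was unsaturated on replicates 1 and 4.

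Of the 5 collagen hydroxylases, 0 passed in limma and 0 had an unadjusted p under 0.05. Plod1, a lysyl hydroxylase, was positive on all 4 arrays, from 0.11 to 0.42, with a fitted 0.23 ± 0.10 (95% interval -0.01 to 0.46; adjusted p = 0.41). The prolyl hydroxylase subunit P4ha1 was at 0.19 ± 0.09 and 0.28 ± 0.09 with its 2 probes, and Plod3 at 0.08 ± 0.09 and 0.14 ± 0.09. For P4ha1 the sign followed the dye at both probes: replicates 2 and 3 gave 0.54 and 0.60 with the first, and replicates 1 and 4 gave -0.28 and -0.12. The first Plod3 probe did so too, at -0.29, 0.46, 0.38 and -0.22 on replicates 1 to 4. The other Plod3 probe was positive on all 4 arrays, from 0.05 to 0.21.

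The 12 genes with saturated probes only were Postn, Sparc, Efemp2, Fbln1, Fbln2, Fbn1, Ltbp2, Ltbp4, Lox, Loxl1, P4ha2 and Plod2. Saturated channels are capped, so the ratio between them says little about expression. On the array 239 probes were saturated in all 8 channels, and their median ratios were 0.23, -0.31, -0.26 and 0.81 on replicates 1 to 4. The 4 probes of that kind that belong to these genes, both Sparc probes and 2 of Fn1, gave 0.23, -0.31 to -0.29, -0.26 and 0.70 to 0.81. The medians of the 12 genes were 0.23, -0.22, -0.26 and 0.11, which turned with the dye orientation, and the median of their fitted values was -0.01. Fbln1 and Ltbp2 were saturated in all 4 untreated and 3 of 4 GDF8 channels, and no fold is given for them. The other 9 were saturated in 1 to 3 channels of each RNA, and 0 of the 12 passed in limma, with 0 at an unadjusted p under 0.05. For 8 of the 12 genes, at least 1 channel was saturated on every array at every probe. The other 4 had arrays with both channels unsaturated, and the ratios there are too few for a test. A second, less bright Fbn1 probe gave -0.18 on replicate 1 and -0.48 on replicate 4, and Ltbp4 gave 0.20 on replicate 3 and -0.73 on replicate 4. Lox gave -0.42 on replicate 1 and Plod2 -0.39 on replicate 4. All of these but the Ltbp4 ratio on replicate 3 come from arrays with GDF8 in Cy3, so for Fbn1, Lox and Plod2 a dye effect and a difference with GDF8 cannot be told apart.

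**Figure D3:**
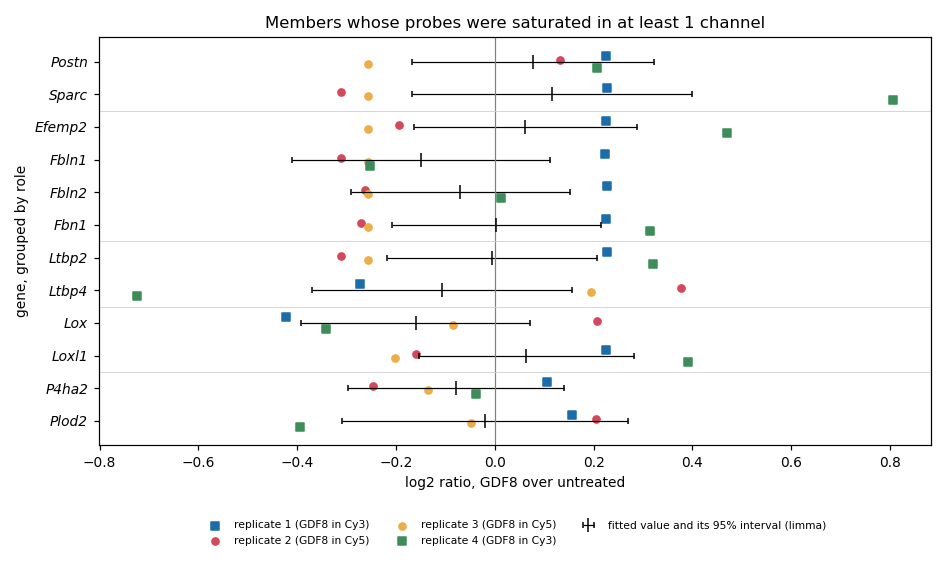
Log2 ratio of GDF8 over untreated (x axis) on each array for the 12 genes whose probes were saturated in at least 1 channel (y axis, grouped by role), with symbols as in the plot of unsaturated genes and black bars for the limma estimate with its 95% interval. Many blue squares stack at 0.23 and many yellow circles at -0.26, the values that fully saturated probes take on replicates 1 and 3.

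The arrays did not behave as 4 exchangeable samples for all of these genes. Replicates 1 and 2, like replicates 3 and 4, hold 1 array of each dye orientation, so the difference between these pairs is free of a dye effect common to both. That difference exceeded 0.5 in size for 3 of the 25 genes with an unsaturated probe, namely Efemp1 at 0.97, Sparcl1 at 1.17 and Has2 at -1.16. Over all features with such a probe it did so for 13.8%, against 0.99% for the other dye-balanced split, replicates 1 and 3 against 2 and 4, which passed 0.5 for Sparcl1 alone of the 25 (0.55). The SD of the first difference over all features with an unsaturated probe was 0.35 and of the second 0.19. The difference between the dye orientations had an SD of 0.36, about as large as the first. At the probe used for each gene, Tnc did not share the split, with means of 0.52 and 0.55 in the pairs, and Thbs4 had -0.71 and -0.42. The other Tnc probes were less even, with replicate 4 highest. They gave 0.48, 0.11, 0.22 and 1.58, and 0.42, 0.35, 0.30 and 1.09, on replicates 1 to 4. At both, the mean of replicates 3 and 4 was above that of replicates 1 and 2, by more than 0.5 at the first. Tnc was thus even between the pairs at the probe used for it only. The labels name no batch that divides replicates 1 and 2 from replicates 3 and 4, and the part of any such batch was not tested. With the arrays of each pair averaged, which leaves 2 values, 9 features were higher and 111 lower, and 0 of the 37 genes passed in limma, with 8 at an unadjusted p under 0.05.

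**Figure D4:**
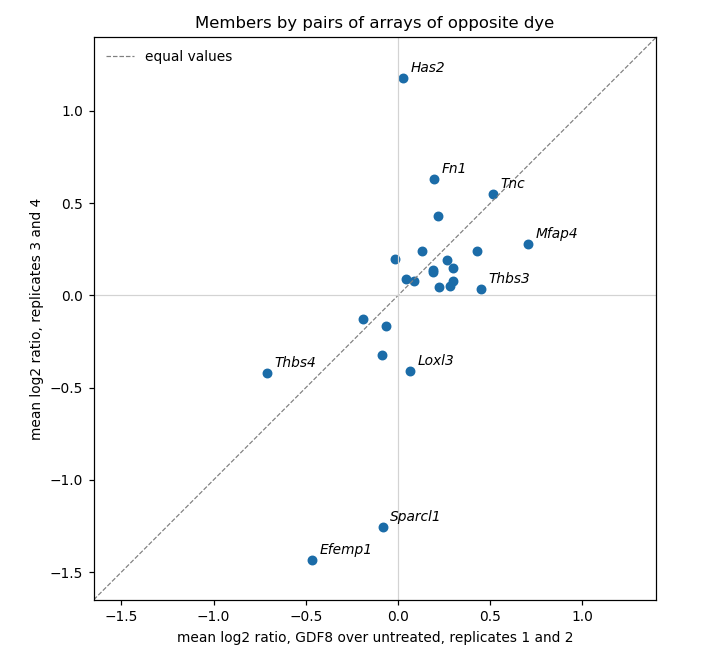
Mean log2 ratio of GDF8 over untreated on replicates 1 and 2 (x axis) against that on replicates 3 and 4 (y axis), 1 point for each of the 25 genes with an unsaturated probe; the dashed line marks equal values. Has2, Sparcl1 and Efemp1 lie far from the line, with gaps of -1.16, 1.17 and 0.97, while Tnc lies close to it at 0.52 and 0.55. Each point is the probe used for the gene, and the other Tnc probes were less even.

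Other genes of the same matrix processes were read from a list of 65, of which 63 had a probe and 51 were tested. In limma 0 of the 51 passed in either direction, with 5 higher and 3 lower at an unadjusted p under 0.05, and their median was 0.05, with 33 positive. The 4 with the smallest p were Smoc1, a calcium-binding matricellular relative of SPARC, at 0.40 ± 0.09 (adjusted p = 0.086) and positive on all 4 arrays, Adamtsl2, a microfibril-bound ADAMTS-like protein, at -0.39 ± 0.10 (adjusted p = 0.12) and negative on all 4, P3h2, a prolyl 3-hydroxylase, at -0.42 ± 0.12 (adjusted p = 0.17) and also negative on all 4, and Comp, which is thrombospondin 5, at 0.57 ± 0.19 (adjusted p = 0.25), with replicate 3 below 0. Smoc1 gave 0.34, 0.56, 0.38 and 0.31 on the 4 arrays. Of the classical TGF-beta targets on that list, Ccn2 was saturated in 4 GDF8 and 3 untreated channels. Tgfbi, never saturated, gave 0.23, 0.24, -0.92 and -0.55 on replicates 1 to 4. Its fitted value was -0.25 ± 0.21 (adjusted p = 0.78).

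Markers of cell state moved with GDF8 on the same arrays. Of 12 myotube markers tested, 3 were lower, namely Ckm (-0.93), Tcap (-1.29) and Actn2 (-1.39), and 8 of the 12 had saturated probes. Of 8 proliferation markers, 5 were higher, between 0.75 and 0.95, among them Mki67 (0.80) and Ccnb1 (0.95). Of 4 fibroblast markers tested 0 passed in limma, with Pdgfra at -0.18 and Pi16 at 0.23. Of 3 smooth muscle markers 0 passed, with Tagln at 0.44 (adjusted p = 0.056) and Cnn1 at 0.56 (adjusted p = 0.084), and 0 passed among 2 endothelial, 2 blood, 2 adipocyte and 3 nerve markers. Before adjustment, p was under 0.05 for 0 of the 4 fibroblast, 2 of the 3 smooth muscle, 1 endothelial (Tek, 0.35), 1 blood (Hba-a1, -0.42), 0 adipocyte and 1 nerve marker (Tubb3, 0.56). Detection was mixed among the endothelial and blood markers. Pecam1 and Ptprc were above background in 0 of 8 channels. Cdh5 was so in 0 GDF8 and 1 untreated channel, and Itgam in 1 and 2. Kdr, Tek, Cd68 and Hba-a1 were above background in 4 of 4 GDF8 and 4 of 4 untreated channels. The part of myotube number or proliferation in the values of Tnc, Thbs4 and Efemp1 was not tested.

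**Figure D5:**
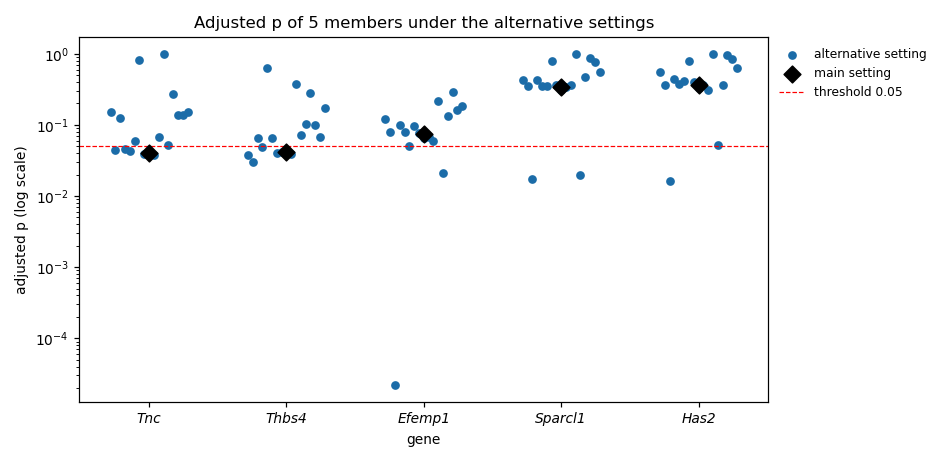
Adjusted p of Tnc, Thbs4, Efemp1, Sparcl1 and Has2 (x axis) on a log scale (y axis), with a black diamond for the limma fit reported here and blue points for the alternative settings without a fold threshold; the red line is the threshold of 0.05. Tnc and Thbs4 lie just under the line at 0.040 and 0.042 with alternatives on both sides, and Efemp1 lies just above it at 0.074.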

How the data were processed

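Array values of 4 two-colour arrays were used. Agilent Feature Extraction 9.1.1.1 wrote the deposited scanner files for array design 014868. Per the file headers they hold the intensity of each spot, its local background, a log10 ratio of red over green and other columns that are flags of saturation, outliers and signal above background. The design text of the series says that the authors took these into GeneSpring GX and used an unpaired test at p under 0.05 with a 1.6-fold change. The authors' deposited log2 table held, in the direction GDF8 over untreated, the log2 ratio of processed signals for 100% of 40929 single-spot probes (tolerance 0.001). Its column medians were 0.14, -0.09, -0.11 and 0.09, so it was not centred.

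Mean signals were corrected by normexp (offset 50) and normalised within arrays by loess in limma 3.58.1 under R 4.3.3. Control spots had weight 0 in the loess, outlier spots were left out and spots of a probe were averaged. Of 43379 non-control spots per array, 9.20% to 12.1% were saturated in red and 0.74% to 5.49% in green, and 63.3% to 78.8% were well above background in a channel. A probe entered if well above background on all 4 arrays of either RNA, which 26937 probes did. The brightest probe that was never saturated stood for a gene, and the brightest saturated one otherwise. Names are those of the array design.

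The fit had a term for GDF8 and one for dye, with each array as its own block. The GDF8 and untreated RNA of a replicate share an array, which is the source of the pairing. With 4 arrays the smallest two-sided p of an exact sign-flip permutation is 0.125, so calls of single genes depend on the variance that limma shares across features. Values on each array were given for genes past the threshold, for genes with the same sign on all 4 arrays and a change over 0.3, and for genes whose unsaturated probes disagree in sign by over 0.3. Array values outside this rule were given for the genes said above to be chosen after their values were seen. They were also given for P4ha1, Plod3, Loxl3 and Tgfbi, and for some arrays of genes with saturated probes. Of other matrix genes, those past the threshold were named, and otherwise up to 4 with the smallest p. Ccn2 and Tgfbi were named outside this rule, as classical TGF-beta targets. The genes and lists were chosen with earlier results of these data known. On simulated ratios for this comparison 20 of 17465 unchanged features were called. Promoter windows are RefSeq sequences of GRCm38.p6. The number of arrays limits the precision.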

Additional observations from a re-analysis of the deposited data

Results flagged for a closer look

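The Fbln1 ratio on replicate 1, 0.22, lay far from the other arrays, which were between -0.31 and -0.25. With 4 arrays, chance sets about 1 in 20 genes apart by this measure. The probe was saturated in 7 of 8 channels, and 0.22 lies near the 0.23 that fully saturated probes gave on replicate 1.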

How the results depend on the processing

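Against 159 features higher and 416 lower, 71 were higher with the authors' deposited log2 ratios, 83 without the dye term, 71 by the methods' t-test unadjusted with a 1.6-fold change, and 65 with an adjusted p and a 1.6-fold change. The methods' t-test after Benjamini-Hochberg gave 28 and 89, averaged pairs of arrays 9 and 111, and unpaired single-channel values, with no replicate block, 57 and 253. Leaving out 1 array gave 0 to 122 higher and 0 to 364 lower; without replicate 2, where limma called 0, 572 features were higher and 1114 lower at an unadjusted p under 0.05.

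Of the 37 genes, 0 were higher with the deposited ratios, no dye term, no replicate block, the mean of unsaturated probes, either form of the t-test, the 1.6-fold threshold, averaged pairs and each array left out (0 to 0), and 1 otherwise, which was Tnc, or Has2 with median centring (0.62, adjusted p = 0.016). The number lower was 2 with median centring (Efemp1 and Sparcl1), 0 with the filter on both channels, where Thbs4 turned to 0.17, 0 without the dye term, with the mean of probes, with the adjusted t-test, with the 1.6-fold threshold and with averaged pairs, and 0 to 2 with 1 array left out; elsewhere it was 1, which was Thbs4, or Efemp1 by the unadjusted t-test. The blocked and unblocked fits gave the same call for Thbs4 (adjusted p = 0.041 unblocked), and only the Tnc call was lost. The median of the genes, 0.08, was 0.16 with probes never saturated and 0.16 with the mean of those probes, and 0.06 to 0.09 with 1 array left out. Among other matrix genes 1 was higher with median centring (Comp, 0.62) and 1 by the adjusted t-test (Smoc1). All 37 genes kept their side of the threshold with an offset of 10 and with no filter on dim probes, and all but Fbn1, at 0.0030 and with the offset of 10 at -0.0055, kept their direction. The cause of these differences was not tested. Saturation leaves 8 of the genes without an array free of it.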
